A study of Arabidopsis thaliana with 6 samples.

Results

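Peroxiredoxins are thiol peroxidases that destroy hydrogen peroxide with a reactive cysteine, and sulfiredoxin is the enzyme that repairs some of them. The 10 Arabidopsis loci examined were chosen by locus identifier as the named peroxiredoxin genes and the sulfiredoxin gene. The rule uses no measured value, although earlier results of these data were known when it was written. Of these 10, 8 had a row among the 21430 probe sets of the table. The genes PRXIIC (AT1G65970, TPX2 in RefSeq) and PRXIID (AT1G60740) had none and were not analysed here. Of the 8, 7 passed the filter on low values and were tested, and PER1 (AT1G48130) did not.

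All plants were Arabidopsis thaliana wild type of the accession Columbia-0, grown in liquid medium with sucrose for 7 days and then given either H2O2 to 10 mM or water (mock) for a further 24 h. Each group had 3 replicates, each one pool of 4 to 5 plants on its own Affymetrix array. The labels call the tissue leaf and the source seedling, and leave it open whether replicates were separate cultures. The p-values therefore cover the spread between pools, which may be technical. The comparison asks which transcripts differ 1 day after a dose of the oxidant that these enzymes remove.

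In a peroxiredoxin, a cysteine is oxidised by the peroxide and the enzyme must then be reduced again, by a thioredoxin or a glutaredoxin, before it can act once more. The reducing power comes from NADPH through thioredoxin reductases or glutathione, and in chloroplasts also from light through ferredoxin. The typical 2-Cys enzymes and PRXQ work in chloroplasts, the type II enzymes are spread over cytosol, plastid and mitochondrion, and the 1-Cys enzyme belongs to seeds. When peroxide is in excess, the cysteine of 2-Cys enzymes can be overoxidised and the enzyme is switched off. Sulfiredoxin reverses that state at the expense of ATP.

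The organ markers were read first. The 4 leaf genes with a row (PSAD1, PSBO1, RCA and LHCA1, which encode parts of photosynthesis) averaged 12.27 to 12.36 on the log2 scale on the mock arrays and 11.86 to 12.06 on the H2O2 arrays. The 6 root genes averaged 7.57 to 7.65 in mock and 6.76 to 6.99 in H2O2, the lowest of them being MRN1 at a mean of 3.95 in mock. Root genes were thus measured in pools labelled leaf. All 4 leaf genes and 4 of 6 root genes were lower after H2O2 (limma adjusted p under 0.05). With reference gene centring the calls of PSBO1, RCA, LHCA1, CASP1 and MRN1 ended, and with quantile normalization those of RCA (-0.07, adjusted p = 0.412), LHCA1 (-0.16, adjusted p = 0.119) and CASP1. CASP1 kept its call in 6 of 16 alternatives and MRN1 in 6 of 15. The root hair wall gene PRP3 (AT3G62680) fell by 2.08 on the log2 scale, and XTH14 (AT4G25820), the gene of a wall-modifying enzyme, fell by 1.76. CASP1 and MRN1 changed by -0.30 each. PYK10, the root gene with the strongest signal (12.02 in mock), changed by -0.05 and CASP4 by 0.16, neither of them called. Over all 15001 probe sets tested, 60.4% were called, with 36.5% lower and 23.9% higher in H2O2, and the median log2 change was -0.10. Centring each array on 7 reference genes moved that median by 0.17. Among called probe sets only, it turned the share that was higher from 39.5% to 61.0%. Of these 7 reference genes, 3 were themselves called lower before centring and 4 were not called, with a median log2 change of -0.15. Centring on them thus moved every change upward, and which scaling lies nearer to the true levels was not tested.

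Across the family, transcripts of the plastid peroxiredoxins and of the mitochondrial PRXIIF were moderately lower after H2O2. The cytosolic PRXIIB and sulfiredoxin, itself an enzyme of chloroplasts and mitochondria, were not called. Mitochondrion and cytosol were each represented by a single tested peroxiredoxin. Of the 7 members tested, 5 fell (2CPA, 2CPB, PRXQ, PRXIIE and PRXIIF) and none rose, by limma with Benjamini-Hochberg adjustment over all 15001 probe sets. The share called in either direction, 5 of 7, stood near the 60.4% of all probe sets, while the share called lower can be read beside 36.5%. At an unadjusted p under 0.05 the counts were again 5 lower and 0 higher. The median log2 change of the 7 was -0.39. The H2O2 arrays lay wholly below the mock arrays for 5 members and wholly above for 1, where 67.2% of all probe sets had groups that did not overlap and 40.7% had H2O2 below. No member changed 2-fold, while 11.8% of all probe sets were both called and changed at least 2-fold. With reference gene centring, 2 members were called lower (2CPB and PRXIIF) and 1 higher (PRXIIB). Leaving out mock replicate 2 also left 2 lower.

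**Figure D1:**
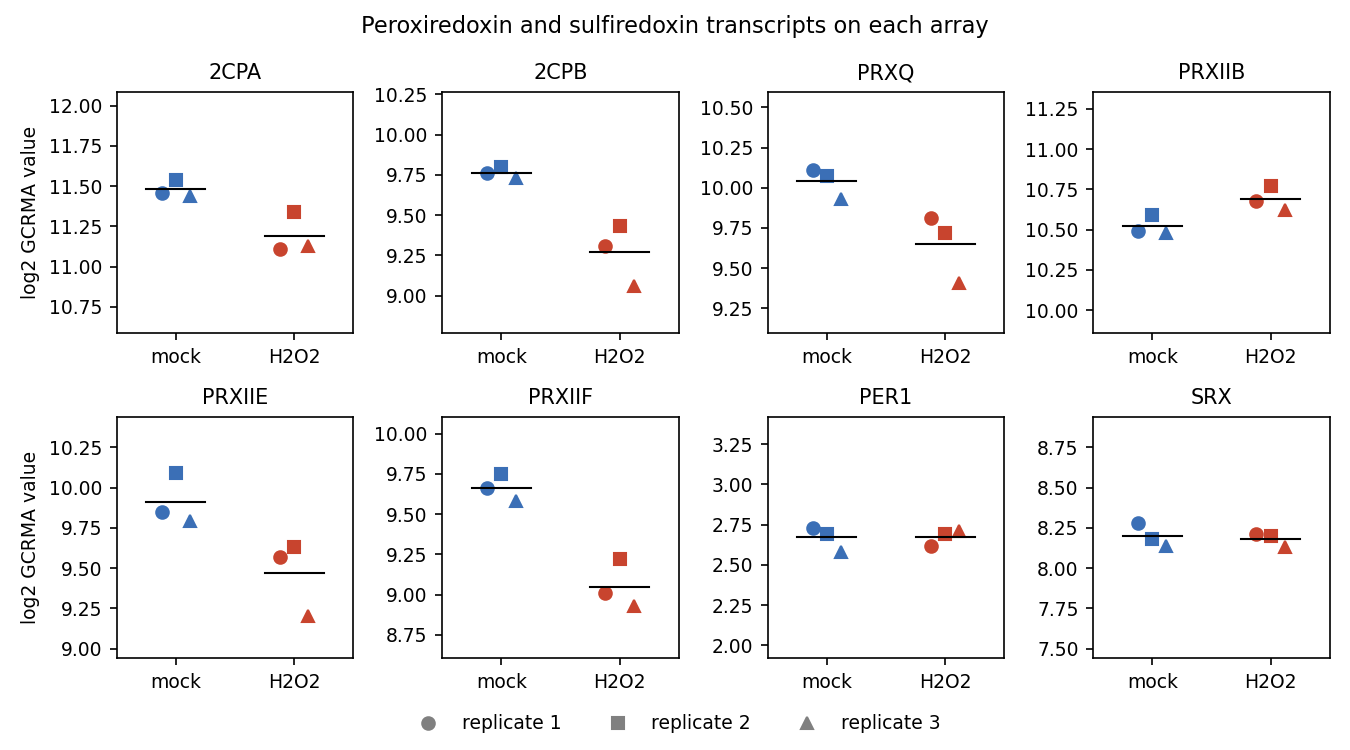
Log2 GCRMA values of the 8 measured genes on each array, with 1 panel per gene. Circles, squares and triangles stand for replicates 1, 2 and 3, lines for group means, and every panel spans the same log2 range around its own centre. The 3 H2O2 arrays lie below the 3 mock arrays for 2CPA, 2CPB, PRXQ, PRXIIE and PRXIIF, above them for PRXIIB, and among them for PER1 and SRX.

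The typical 2-Cys peroxiredoxins 2CPA (AT3G11630) and 2CPB (AT5G06290) are paired stromal enzymes that protect the photosynthetic machinery and also pass oxidising equivalents to thioredoxins. For 2CPB the mock arrays read 9.76, 9.80 and 9.73 on the log2 scale, and the H2O2 arrays 9.31, 9.43 and 9.06. All H2O2 arrays lay below all mock arrays, and the H2O2 arrays were more widely spread. The log2 change was -0.50 (SE 0.10, 95% confidence interval -0.73 to -0.26, limma adjusted p = 0.00307), which left 70.9% of the mock level. This call held under all 16 alternatives, with a change between -0.58 and -0.32.

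For 2CPA the mock arrays read 11.46, 11.54 and 11.44, and the H2O2 arrays 11.11, 11.34 and 11.13. The groups did not overlap, with H2O2 replicate 2 nearest to the mock arrays. The change was -0.28 on the log2 scale (SE 0.09, interval -0.48 to -0.08, limma adjusted p = 0.0207), or 82.1% of the mock level. The call ended with quantile normalization (-0.12, adjusted p = 0.22) and with reference gene centring (-0.11, adjusted p = 0.301). It also ended without mock replicate 2 (-0.26, adjusted p = 0.0719), without H2O2 replicate 1 (-0.24, adjusted p = 0.072) and without H2O2 replicate 3 (-0.25, adjusted p = 0.0613). The change of 2CPA was less negative than that of 2CPB by 0.21 on the log2 scale (SE 0.08, n = 3 each). The difference was 0.33 with quantile normalization and 0.14 without H2O2 replicate 3. An exact two-sided permutation test of the main value gave p = 0.10, the smallest value that 3 arrays against 3 allow.

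PRXQ (AT3G26060) encodes a plastid peroxiredoxin that is found with thylakoids and acts as a monomer. Its mock arrays read 10.11, 10.07 and 9.93, and its H2O2 arrays 9.81, 9.72 and 9.41. The highest H2O2 array came close to the lowest mock array, without overlap. H2O2 minus mock came to -0.39 on the log2 scale (SE 0.11, interval -0.65 to -0.13, limma adjusted p = 0.0163). The call ended with reference gene centring (-0.22, adjusted p = 0.15) and in an unmoderated fit (adjusted p = 0.0718). Without mock replicate 1 or 2 the changes were -0.35 and -0.37 (adjusted p = 0.0505 and 0.0514).

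PRXIIE (AT3G52960) is the type II peroxiredoxin of plastids, which glutaredoxins reduce. The mock arrays read 9.85, 10.09 and 9.79, and the H2O2 arrays 9.57, 9.63 and 9.20. H2O2 replicate 3 stood lowest and mock replicate 2 highest, with no overlap between groups. The change on the log2 scale was -0.45 (SE 0.13, interval -0.75 to -0.15, limma adjusted p = 0.0173), or 73.4% of the mock level. The call ended with reference gene centring (-0.27, adjusted p = 0.114), in an unmoderated fit (adjusted p = 0.0861) and without mock replicate 2 (-0.36, adjusted p = 0.0649).

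The 4 plastid members thus shared their direction with the leaf genes named above, whose changes ran from -0.46 to -0.29. The part of those genes in the plastid result was not tested, and in such pools fewer cells of a type and less RNA per cell cannot be told apart.

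PRXIIF (AT3G06050), the mitochondrial type II enzyme, had the most negative change among the tested members. Its mock arrays read 9.66, 9.75 and 9.58, and its H2O2 arrays 9.01, 9.22 and 8.93. The gap between the highest H2O2 array and the lowest mock array was wider than the spread of either group. The fitted log2 change was -0.61 (SE 0.10, interval -0.83 to -0.39, limma adjusted p = 0.000826), which left 65.5% of the mock level. It kept its call under all 16 alternatives, between -0.70 and -0.44. Of all probe sets tested, 12.7% had a more negative change.

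PRXIIB (AT1G65980, TPX1 in RefSeq) encodes the main cytosolic type II enzyme of vegetative tissue. Its mock arrays read 10.49, 10.59 and 10.48, and its H2O2 arrays 10.68, 10.77 and 10.62. All H2O2 arrays lay above all mock arrays, by a small margin. The log2 change was 0.17 (SE 0.08, interval -0.01 to 0.35), which did not pass (limma adjusted p = 0.0856). It passed with quantile normalization (0.27, adjusted p = 0.011), with reference gene centring (0.34, adjusted p = 0.00668) and with a trended, robust prior (0.17, adjusted p = 0.0369). In RefSeq the neighbouring locus TPX2 is PRXIIC, a close relative in sequence. The probe definition is not given in the sources used here, so how far transcripts of PRXIIC or PRXIID add to this signal was not tested.

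The cytosolic PRXIIB was set against its type II relatives in the organelles, in a pair of comparisons chosen after the values were seen. Its change exceeded that of PRXIIF by 0.78 on the log2 scale (SE 0.05) and that of PRXIIE by 0.62 (SE 0.12, n = 3 each). With the 2CPA and 2CPB pair, 3 such differences were computed. In the pairs chosen afterwards, PRXIIB lay wholly above mock after H2O2 and its partner wholly below. Their exact permutation p was therefore fixed in advance at the smallest possible value, 0.10, also after adjustment over the 3. It adds nothing to the values themselves. These differences compare genes within arrays, so a shift of a whole array cancels in them, but a correction that depends on signal level, such as quantile normalization, does not.

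SRX (AT1G31170), the sulfiredoxin gene, encodes an enzyme of chloroplasts and mitochondria. Its mock arrays read 8.28, 8.18 and 8.14, and its H2O2 arrays 8.21, 8.20 and 8.13. The groups overlapped, and the 6 arrays lay within a narrow range. The log2 change was -0.02 (SE 0.07, interval -0.19 to 0.15, limma adjusted p = 0.83). No alternative brought it past the threshold, and its value ran from -0.05 to 0.15, the last with reference gene centring (adjusted p = 0.136).

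PER1 encodes the 1-Cys peroxiredoxin of maturing seeds and dormant embryos. Its mock arrays read 2.73, 2.69 and 2.58, and its H2O2 arrays 2.62, 2.69 and 2.71, all below the filter level of 3.79. GCRMA presses weak signals toward a floor, so no fold is given. The 12 seed maturation genes examined with it (storage proteins, oleosins, late embryogenesis proteins and the regulator ABI3) were low as well, with group means of 1.90 to 3.05 in mock and 1.97 to 3.04 in H2O2. None of the 12 passed the filter.

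**Figure D2:**
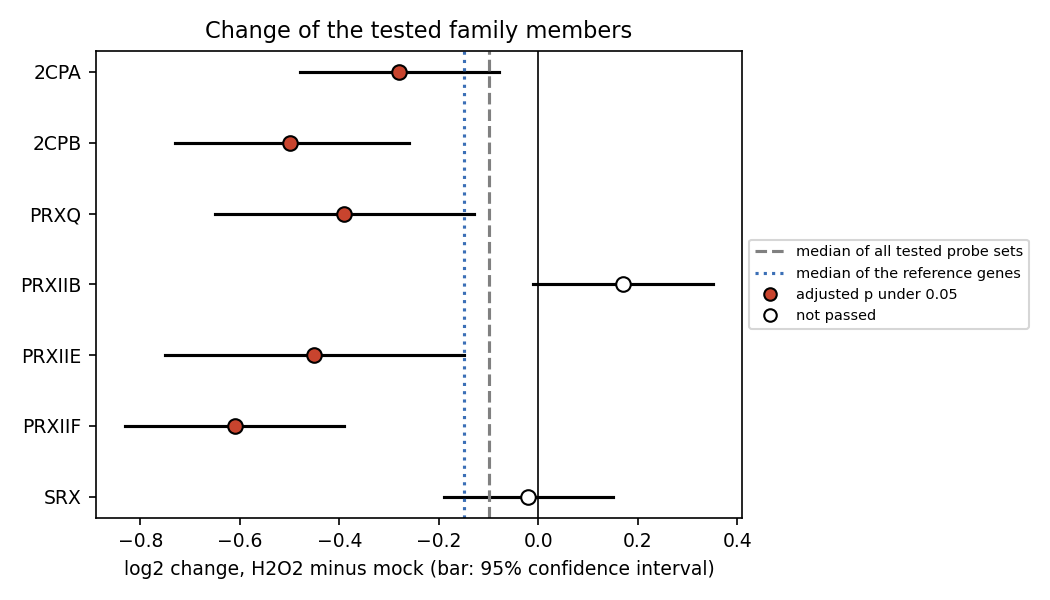
Log2 change (H2O2 minus mock) of the 7 tested genes with the 95% confidence interval from limma. Filled points had an adjusted p under 0.05, the dashed line marks the median of all tested probe sets (-0.10) and the dotted line that of the reference genes (-0.15). The 5 filled points run from -0.61 (PRXIIF) to -0.28 (2CPA), with SRX at -0.02 and PRXIIB at 0.17.

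Within each group, the members often ranked the replicates alike. Mock replicate 3 was the lowest mock array for 7 of 7 tested members, against 39.9% of all probe sets and 43% of those called lower. H2O2 replicate 3 was the lowest H2O2 array for 6 of 7, the exception being 2CPA, against 38.8% of all probe sets and 50.5% of those called lower. The spread between replicates was larger in H2O2 than in mock for 6 of 7 members, the exception being SRX. Among all probe sets this share was 57.0%, and among those called lower 62%. These counts describe 6 arrays and carry no test. With the replicate number as a block, the same 5 members were called lower.

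The electron donors that return peroxiredoxins to their reduced form were examined next. Most genes of the plastid thioredoxin system fell, as the plastid peroxiredoxins did. Of 22 genes on the list, 21 were tested, of which 16 fell, 1 rose and 4 were not called. Their median was -0.44 on the log2 scale, beside -0.10 for all probe sets, of which 36.5% were called lower. With reference gene centring 11 were lower and 2 higher. TRXL2.1 (AT5G06690), a thioredoxin-like protein that can oxidise its targets, fell by 1.03 (SE 0.09), and FTRA1 (AT5G23440), a subunit of ferredoxin-thioredoxin reductase, by 0.79 (SE 0.11). TRXZ (AT3G06730), which is bound to the plastid RNA polymerase, fell by 0.75 (SE 0.08). ACHT4 (AT1G08570), an atypical thioredoxin of plastids, rose by 0.80 (SE 0.15) and was the riser of the list.

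The donors known for particular plastid peroxiredoxins were picked out after their values were seen. NTRC (AT2G41680), which joins a reductase and a thioredoxin in one protein and is the chief reductant of 2-Cys peroxiredoxins, read 9.24, 9.37 and 9.24 in mock and 8.91, 8.98 and 8.87 in H2O2. The groups did not overlap, and the log2 change was -0.37 (SE 0.08, limma adjusted p = 0.00358). That call ended with reference gene centring (-0.19, adjusted p = 0.0813). TRXX (AT1G50320), another donor to the 2-Cys enzymes, fell by 0.61 (SE 0.08). CDSP32 (AT1G76080), a drought-induced plastid thioredoxin, had a change of -0.22 (adjusted p = 0.0342), which ended with quantile normalization (-0.09, adjusted p = 0.27), with reference gene centring (-0.04, adjusted p = 0.657) and without any one of 5 arrays, H2O2 replicate 2 being the exception (-0.24 to -0.18, adjusted p = 0.0561 to 0.114).

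Of the y-type thioredoxins, which reduce PRXQ, 1 of 2 was called, and the difference between them was not tested. TRXY2 (AT1G43560) fell by 0.74 (SE 0.12, limma adjusted p = 0.000762), while TRXY1 (AT1G76760) changed by 0.24 (SE 0.10, adjusted p = 0.0671). TRXY1 passed when the replicate number was a block (0.24, adjusted p = 0.0244), with reference gene centring (0.42, adjusted p = 0.0104), with array weights (0.28, adjusted p = 0.0368), without mock replicate 1 (0.31, adjusted p = 0.0378) and without H2O2 replicate 2 (0.32, adjusted p = 0.03).

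Thioredoxins of cytosol and mitochondrion went both ways. Of 12 genes on that list, 10 had a row and 9 were tested, of which 5 rose, 2 fell and 2 did not pass, with a median of 0.29, beside 23.9% higher and 36.5% lower among all probe sets. The reductases NTRA and NTRB were not analysed here. Both fallers were the mitochondrial thioredoxins, TRXO1 (AT2G35010) by 0.53 (SE 0.12) and TRXO2 (AT1G31020) by 0.52 (SE 0.10), known donors to PRXIIF. The 5 risers were among 7 tested h-type thioredoxins, a group that includes the donors of PRXIIB. TRXH8 (AT1G69880) rose by 2.01 (SE 0.20) and TRXH9 (AT3G08710) by 0.49 (SE 0.10). The cytosolic forms TRXH3 (AT5G42980) and TRXH5 (AT1G45145), singled out after their values were seen, rose by 0.33 (SE 0.07) and 0.29 (SE 0.08). Their mock means were 11.72 and 8.78, beside 9.13 for TRXH2. The h-type genes that did not pass were TRXH2 at 0.09 and TRXH4 (AT1G19730) at -0.26 (adjusted p = 0.395 and 0.118). TRXH4 was called lower when the replicate number was a block (-0.26, adjusted p = 0.0262) and without H2O2 replicate 2 (-0.39, adjusted p = 0.0221), which makes 3 fallers. The riser with the largest adjusted p was TRXH1 (AT3G51030) at 0.33 (SE 0.12, limma adjusted p = 0.0361). With reference gene centring 6 were higher and 2 lower, and no difference between compartments was tested. In an unmoderated fit 4 were higher, and 4 to 5 when 1 array was left out.

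Glutaredoxins use glutathione, and some of them reduce type II peroxiredoxins. The list holds glutaredoxins of classes I and II and was not limited to known donors. Of 9 tested, 4 fell, 1 rose and 4 were not called, with a median of -0.09, which is near the shares of all probe sets (60.4% called, 36.5% lower). GRXS12 (AT2G20270), a plastid form, fell by 1.04 (SE 0.15), and GRXS14 (AT3G54900), another plastid form that binds an iron-sulfur cluster, by 0.90 (SE 0.11). GRXC4 (AT5G20500) fell by 0.54 (SE 0.11). GRXC2 (AT5G40370), a cytosolic form, rose by 0.59 (SE 0.08, limma adjusted p = 0.000421). With reference gene centring 3 were called higher and 4 lower.

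**Figure D3:**
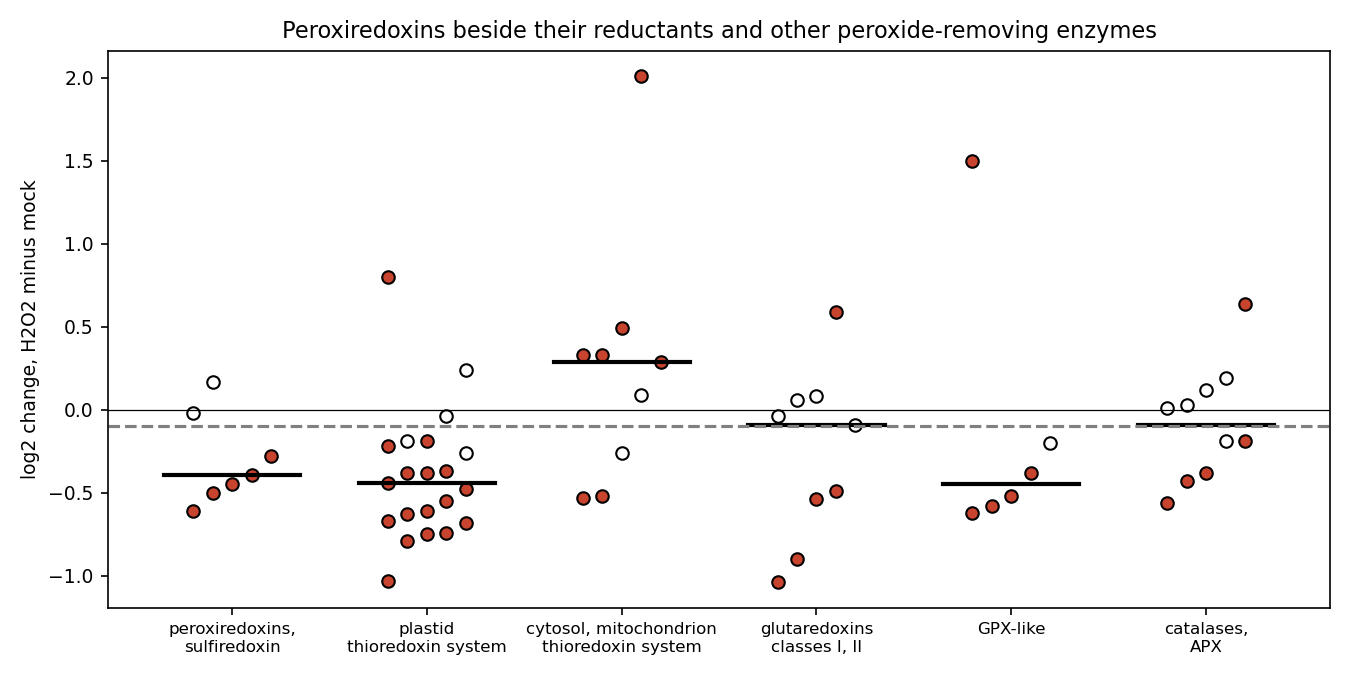
Log2 change (H2O2 minus mock) of every tested gene in 6 lists, with peroxiredoxins and sulfiredoxin at the left. Filled points had an adjusted p under 0.05, bars mark list medians and the dashed line the median of all tested probe sets. The medians are -0.39 for the peroxiredoxins and sulfiredoxin, -0.44 for the plastid thioredoxin system, 0.29 for the cytosolic and mitochondrial thioredoxins, -0.09 for glutaredoxins, -0.45 for the glutathione peroxidase-like genes and -0.09 for catalases and ascorbate peroxidases (APX).

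Genes of other peroxide-removing families are given for scale, with no test between lists, beside 36.5% lower and 23.9% higher among all probe sets. Whether every listed product removes peroxide was not tested. Among 6 tested glutathione peroxidase-like genes, whose products are also reduced by thioredoxins, 4 fell and 1 rose, with a median of -0.45. GPX6 (AT4G11600) rose 2.83-fold (SE 0.09 log2), a larger change than that of any peroxiredoxin tested. The largest falls of that list were those of GPX8 (AT1G63460) at -0.62, GPX3 (AT2G43350) at -0.58 and GPX5 (AT3G63080) at -0.52 on the log2 scale. Among 10 tested genes on the list of catalases and ascorbate peroxidases, 4 fell and 1 rose, with a median of -0.09. The share lower was thus near that of all probe sets. The riser among those tested was the cytosolic APX1 (AT1G07890) at 0.64 (SE 0.08). The largest falls were those of APX6 (AT4G32320) at -0.56, TAPX (AT1G77490) at -0.43 and TL29 (AT4G09010) at -0.38. APX2 (AT3G09640), the gene of that list left out by the filter, had a mean of 3.21 over the 6 arrays. It read 2.60, 2.65 and 2.79 in mock and 3.63, 3.84 and 3.77 in H2O2. All its H2O2 arrays lay above all its mock arrays, but near the floor, so no fold is given.

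**Figure D4:**
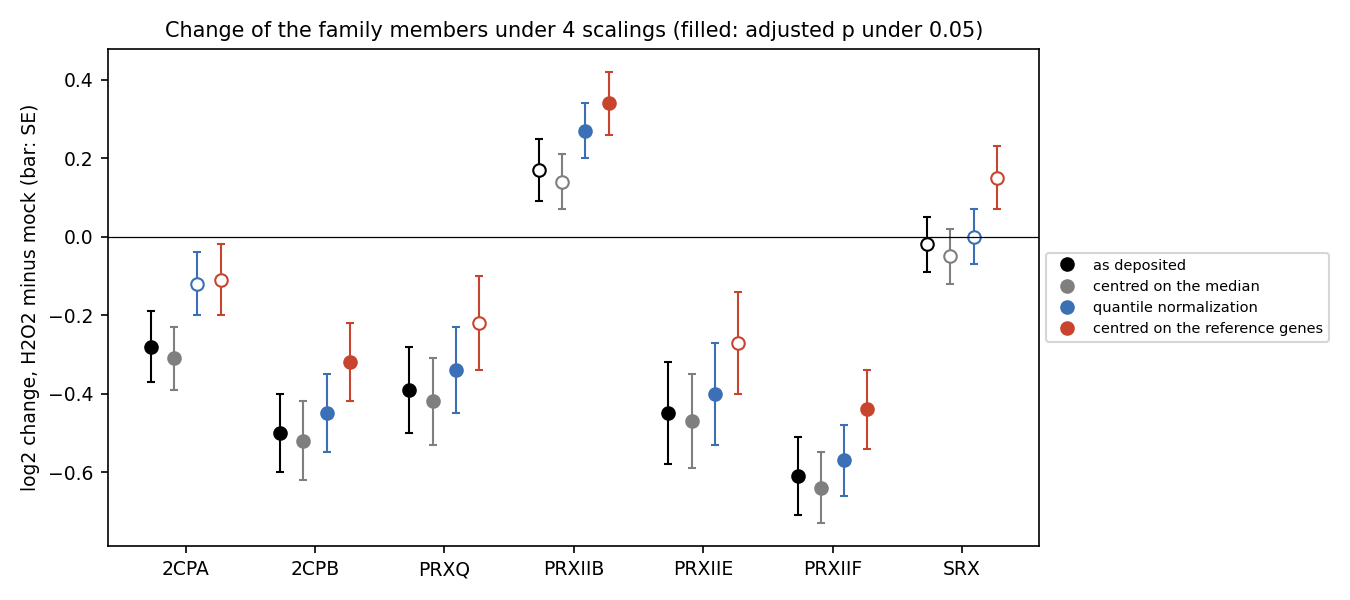
Log2 change (H2O2 minus mock) of the 7 tested genes under 4 scalings, with bars of 1 SE. Filled points had an adjusted p under 0.05. All 4 points are filled for 2CPB and PRXIIF and none for SRX, while PRXIIB is filled at 0.27 with quantile normalization and at 0.34 with reference gene centring.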

How the data were processed

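The authors deposited log2 values made with GCRMA, per the submitters' processing notes, and the log2 scale was inferred from their range. GCRMA adjusts for background from probe base content, normalizes the arrays and combines probes into probe sets. Which chip, probe definition and GCRMA version were used is not given in the sources used here. Median values lay between 5.66 and 5.74 on the 6 arrays, and their number limits the precision. Probe sets were matched by locus. Gene names follow common usage, and RefSeq symbols (TAIR10.1) were used for names only. No listed gene shared identical values with another probe set.

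Probe sets with a mean under the 30th percentile (3.79) were left out, which kept 15001. H2O2 minus mock was fitted with limma 3.58.1 in R 4.3.3 (lmFit, eBayes) with Benjamini-Hochberg adjustment over these and a threshold of 0.05. The residual and prior degrees of freedom were 4 and 4.30. Named were all members, up to 4 called genes per list with the largest changes, and the donors marked in the text. Members and lists were chosen with earlier results of these data known.

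Deviations from group means correlated at 0.19, 0.21 and 0.21 between same-numbered arrays and at most at -0.04 between others. Deviations cancel within a group, so the negative values largely follow from the positive ones. With 6 possible matchings and no batch in the labels, whether the numbers pair the arrays was not settled. A blocked fit was therefore an alternative. Others were 2 filters, raised low values, 3 scalings, other variance settings, array weights and each array left out. On simulated data with 15001 probe sets, 50.7% of changes of 0.5, 86.6% of 1 and 93.9% of 2 (log2) were recovered, and 11 of 165 calls were false. Far fewer probe sets were changed there than the 60.4% called in the real data, which makes the adjusted threshold stricter. The recovered shares therefore do not carry over to the real fit. Figures were drawn with matplotlib 3.10.9.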

Additional observations from a re-analysis of the deposited data

How the results depend on the processing

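Direction was kept by 2CPA, 2CPB, PRXQ, PRXIIB, PRXIIE and PRXIIF under all 16 alternatives, and 2CPB and PRXIIF also kept their calls. Of members, 5 were called lower, but 2 with reference gene centring, 3 without variance moderation and 2 to 5 when 1 array was left out (2 without mock replicate 2). In place of 0 higher there was 1 with quantile normalization, reference gene centring or a trended, robust prior, and 0 in every leave-one-out fit. With the replicate number as a block, no call of a member changed (2CPA adjusted p = 0.015, PRXIIB adjusted p = 0.0737), while the plastid thioredoxin list had 2 higher in place of 1 and 15 lower in place of 16, the cytosolic and mitochondrial list 3 lower in place of 2, and catalases and ascorbate peroxidases 3 lower in place of 4. The plastid list also had 2 higher with reference gene centring or array weights and 1 to 2 when an array was left out. The cytosolic and mitochondrial list had 5 higher, but 6 with reference gene centring, 4 without variance moderation and 4 to 5 when an array was left out. Glutaredoxins had 3 higher with reference gene centring. Catalases and ascorbate peroxidases had 2 higher without the filter, with quantile normalization, reference gene centring or a trended, robust prior, and 1 to 2 when an array was left out. Over all probe sets 5482 were lower, and 3270 with reference gene centring (5123 higher, in place of 3584). Of the root markers, the calls of CASP1 and MRN1 ended with reference gene centring (adjusted p = 0.419 and 0.32), as did those of PSBO1, RCA and LHCA1 among leaf markers. The difference between the changes of 2CPA and 2CPB, 0.21, was 0.33 with quantile normalization and 0.14 to 0.27 when an array was left out. The cause of these shifts was not tested. Weak signals near the floor, such as PER1, gave no usable change.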
